A study of Mus musculus with 57 samples.

Results

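Expression of 10 genes of growth arrest and the p53 pathway was followed through fat depots of mice carrying the R707W change in mitofusin 2 (Mfn2): the Gadd45 family (Gadd45a, Gadd45b, Gadd45g), Trp53 and its inhibitor Mdm2, and the p53 targets Cdkn1a, Bbc3, Ccng1, Phlda3 and Sesn1. The genes were listed by symbol, with earlier results of these data known. The paper had already named Gadd45a among stress response genes with raised RNA in KI fat. They are 10 of the 52853 genes of the count tables, and all 10 passed the filter on low counts in every comparison. Mfn2 tethers and fuses the outer membranes of mitochondria.

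RNA-seq gave 41 columns of counts, each of 1 male C57BL/6J mouse and 1 tissue, in 6 groups. A column is called a library here, but in inguinal tissue on HFD each column held 2 technical replicates of a mouse. Inguinal white adipose tissue (IngWAT) on high fat diet (HFD) came from 8 wild-type (WT) and 8 homozygous Mfn2-R707W knock-in (KI) mice, inguinal tissue on chow from 7 WT and 6 KI mice, and brown adipose tissue (BAT) on HFD from 6 WT and 6 KI mice. No BAT of chow-fed mice was analysed here. HFD held 45% of its energy as fat, the diets ran for 6 months from 5 weeks of age by the methods (the legends give an older start), and the mice were fasted for 6 hours before tissues were taken. The KI colony went back to 1 founder made with CRISPR-Cas9 and also carried a silent change that created a restriction site. The change was present in every cell, so an effect arising in the adipocyte and one arising elsewhere cannot be told apart. WT and KI littermates were housed together.

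Gadd45 proteins are small, acidic and mostly nuclear. They have no enzyme activity of their own and act by binding partners such as the kinase MAP3K4 upstream of p38 and JNK, PCNA and CDK1. They are named for induction by growth arrest and DNA damage, and Gadd45a is induced through p53 but also, without p53, by the integrated stress response, in which ATF4 and CHOP raise transcription when translation is held back. p53, the product of Trp53, is controlled mainly through protein stability, so its activity is usually read from its targets. In adipose tissue p53 activity is known from obesity, ageing and senescence.

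Total counts per library were 17572752 to 25680411 in inguinal tissue on HFD, 8668279 to 11720458 on chow and 8042591 to 10522554 in BAT. The totals of inguinal tissue on HFD cover 2 technical replicates per mouse, unlike the others. The members held from 29 counts (Gadd45b in BAT) upward in a library. Levels are CPM, counts scaled to a common library total, on 1 scale over all 41 libraries. The adipocyte markers were present in every library, and the summed brown adipocyte markers had medians of 14795 CPM in WT BAT against 19.2 in WT inguinal tissue on HFD. Lymphocyte, skeletal muscle, epithelial or mesothelial markers exceeded 10 times the median of their tissue and diet in 11 libraries: 2 WT and 2 KI on HFD, 1 WT and 2 KI on chow, and 2 WT and 2 KI in BAT. Values without these libraries are given wherever a call changed, and beside some other values. In whole tissue, more cells of a type and more RNA per cell cannot be told apart.

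Gadd45a was the 1 member to pass the threshold between genotypes, and it was higher in KI tissue in all 3 settings. In inguinal tissue on HFD it ran from 14.5 CPM (median 15.8) to 22.6 CPM in WT mice and from 47.5 CPM (median 70.7) to 79.5 CPM in KI mice. On chow the WT mice lay between 16.8 and 32.8 CPM (median 23.9) and the KI mice between 84.8 and 119 CPM (median 97.4). In BAT the WT mice lay between 4.87 and 9.90 CPM (median 7.24) and the KI mice between 13.03 and 203 CPM (median 128). Every KI mouse was above every WT mouse in each setting, and the BAT of 1 KI mouse, with 13.03 CPM, sat far below the other KI mice, whose lowest value was 83.6 CPM.

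These levels gave a Gadd45a log2 fold change of 1.93 (SE 0.126, 3.82-fold, edgeR adjusted p = 7.22e-09) in inguinal tissue on HFD. It was 2.04 on chow (SE 0.156, 4.12-fold, edgeR adjusted p = 5.56e-06). In BAT it was 3.99 (SE 0.526, 15.9-fold, edgeR adjusted p = 0.00143). Among all genes tested, Gadd45a ranked 27 of 16471, 106 of 14629 and 4 of 13267 by its log2 fold change. Without the 11 libraries that stood apart, the values were 1.88, 2.15 and 3.92, each past the threshold, and the lowest KI value in BAT was then 83.6 CPM.

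**Figure D1:**
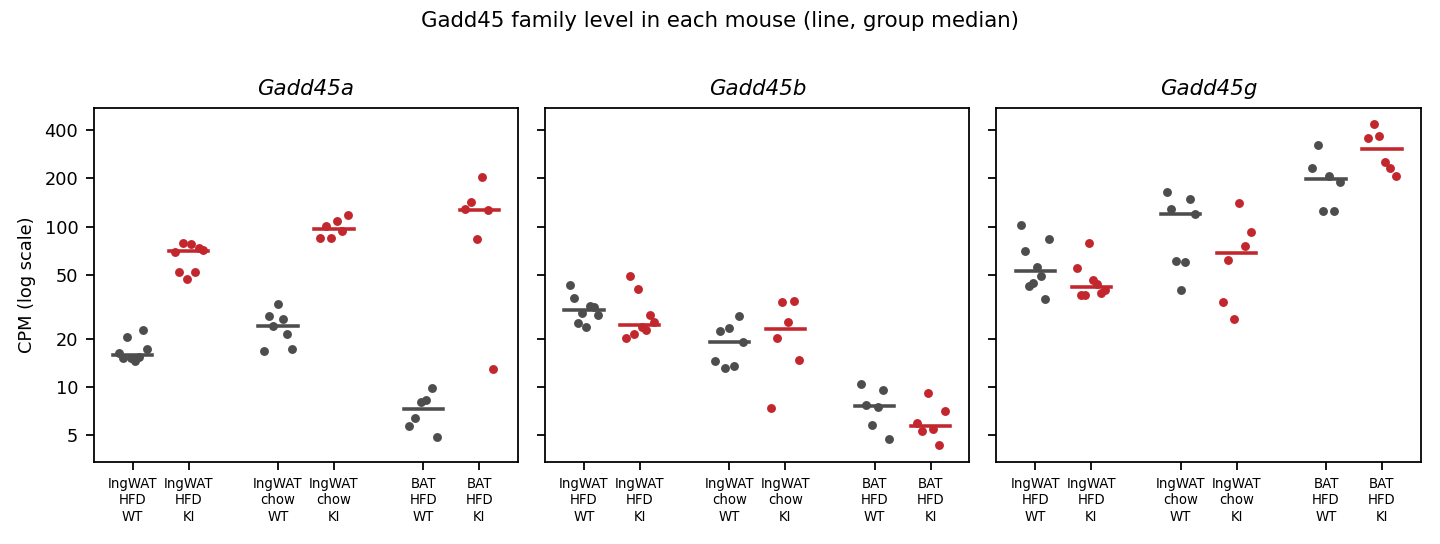
Level of the 3 Gadd45 genes in CPM (vertical axis, log scale) in each mouse of the 6 groups; points are mice and lines are group medians. Gadd45a in KI mice (red) lies above every WT mouse (grey) in all 3 settings, with 1 KI mouse at 13.03 CPM in BAT, while Gadd45b and Gadd45g overlap between genotypes.

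Gadd45a lies on chromosome 6 (GRCm38, positions 67035096 to 67037457, minus strand), and the long noncoding gene E230016M11Rik lies over it on the other strand (67036599 to 67080654). The 2 genes share 337 exonic bases, 19.1% of the 1764 exonic bases of Gadd45a, and the whole of Gadd45a exon 3 (67036678 to 67036915, 238 bases) is among them. E230016M11Rik had medians of 7.72 CPM in WT and 30.5 CPM in KI inguinal tissue on HFD, 10.4 and 38.8 CPM on chow, and 3.63 and 46.5 CPM in BAT. Its log2 fold changes were 1.82 (edgeR adjusted p = 3.89e-08), 1.94 (2.32e-05) and 3.31 (0.00197). The strand setting of the counting is not given in the sources used here, and without strand the reads of the shared stretch cannot be told apart.

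The promoters of the 3 family members and of Cdkn1a are shown because 1 of these genes was called and 3 were not. Each window runs from 250 bases before to 50 bases after a transcription start in RefSeq (GRCm38.p6), 5′ to 3′ on the coding strand. The capitals mark matches to the p53 half-site consensus (by name), to CCAAT or to the ATF4-C/EBP core TGATGNAA, searched on both strands; these are the windows chr6:67037358-67037657 (minus strand), chr10:80929841-80930140, chr13:51846425-51846724 and chr17:29090729-29091028 (plus strand).
Gadd45a: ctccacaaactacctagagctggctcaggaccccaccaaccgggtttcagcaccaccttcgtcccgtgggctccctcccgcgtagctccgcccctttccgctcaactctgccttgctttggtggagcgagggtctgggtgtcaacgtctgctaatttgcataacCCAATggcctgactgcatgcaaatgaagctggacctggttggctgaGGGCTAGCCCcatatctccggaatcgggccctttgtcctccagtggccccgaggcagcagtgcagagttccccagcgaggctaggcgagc
Gadd45b: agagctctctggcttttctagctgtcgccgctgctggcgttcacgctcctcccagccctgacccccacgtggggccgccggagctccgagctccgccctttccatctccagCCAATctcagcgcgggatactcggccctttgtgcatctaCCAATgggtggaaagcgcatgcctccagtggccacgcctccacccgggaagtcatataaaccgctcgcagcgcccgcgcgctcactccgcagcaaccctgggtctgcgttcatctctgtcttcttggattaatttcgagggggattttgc
Gadd45g: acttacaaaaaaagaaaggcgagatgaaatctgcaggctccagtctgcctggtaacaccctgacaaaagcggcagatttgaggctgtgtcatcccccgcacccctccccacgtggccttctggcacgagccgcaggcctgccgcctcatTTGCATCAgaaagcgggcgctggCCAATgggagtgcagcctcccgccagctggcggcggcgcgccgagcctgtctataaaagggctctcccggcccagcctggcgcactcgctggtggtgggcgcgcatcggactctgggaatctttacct
Cdkn1a: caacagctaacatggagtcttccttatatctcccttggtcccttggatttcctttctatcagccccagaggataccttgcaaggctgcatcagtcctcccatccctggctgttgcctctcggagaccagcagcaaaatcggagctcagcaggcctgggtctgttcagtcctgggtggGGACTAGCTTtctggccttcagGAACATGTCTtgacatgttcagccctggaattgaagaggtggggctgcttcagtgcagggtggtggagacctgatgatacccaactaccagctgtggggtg

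In the Gadd45a window the half-site match, GGGCTAGCCC, lies 40 to 31 bases before the start and a CCAAT match lies 86 to 82 bases before it. The Gadd45b window holds 2 CCAAT matches and no half-site. The Gadd45g window holds a CCAAT match 78 to 74 bases before the start and, on the other strand, an ATF4-C/EBP core 101 to 94 bases before it. The Cdkn1a window, the upstream one of the 2 RefSeq windows of this gene, holds half-sites 73 to 64 and 51 to 42 bases before its start. The downstream window of Cdkn1a, not shown, holds no match to any motif searched. All 10 members had at least 1 window in the RefSeq table, 14 in all, and the half-site was found in 6 members, CCAAT in 8, TGATGNAA in 1 and neither TGACGTCA (the cAMP response element) nor TGANTCA (AP-1) in any. Of all 32817 windows, 8.36% held the half-site, 37.4% CCAAT, 3.97% TGATGNAA, 1.79% TGACGTCA and 7.81% TGANTCA. These shares are per window, while the counts before them are per member with up to 3 windows each, so they are not like measures. No motif of the 5 contains another. A match is a description of letters and shows no binding.

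Gadd45b, the family member best known as an immediate response gene of TGF-beta and NF-kappaB signalling, overlapped between genotypes everywhere. Its WT and KI medians were 30.2 and 24.5 CPM in inguinal tissue on HFD, 19.0 and 22.9 CPM on chow and 7.61 and 5.72 CPM in BAT. The log2 fold changes were -0.10 (SE 0.186, 95% interval -0.46 to 0.26), 0.26 (SE 0.312, -0.36 to 0.87) and -0.33 (SE 0.224, -0.77 to 0.11). None passed the threshold (edgeR adjusted p = 0.765, 0.663 and 0.388).

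Gadd45g, the most abundant family member in WT fat, also overlapped between genotypes. Its WT mice lay between 35.6 and 102 CPM (median 52.6) and its KI mice between 37.5 and 78.7 CPM (median 41.8) in inguinal tissue on HFD. On chow the WT range was 40.4 to 164 CPM (median 121) and the KI range 26.4 to 140 CPM (median 68.8). In BAT the WT range was 125 to 325 CPM (median 198) and the KI range 206 to 437 CPM (median 304). The 3 KI medians thus lay on different sides of their WT medians, and the spread between mice was wide. The log2 fold changes of -0.36 (SE 0.217), -0.52 (SE 0.409) and 0.58 (SE 0.250) did not pass (edgeR adjusted p = 0.263, 0.464 and 0.166). Without the libraries that stood apart, the value in BAT was 1.08 (edgeR adjusted p = 0.0190).

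Per kilobase of transcript, Gadd45a made up a larger part of the family in KI tissue. Its median share of the summed CPM per kilobase of the 3 genes was 11.9% in WT and 42.1% in KI inguinal tissue on HFD, 11.3% and 44.9% on chow, and 2.09% and 18.4% in BAT. The share of Gadd45g went from 62.5% to 39.0%, from 78.7% to 44.7% and from 95.1% to 80.7%, and the share of Gadd45b from 24.8% to 17.6%, from 11.1% to 9.26% and from 2.85% to 1.01%. The family sum itself had WT and KI medians of 70.8 and 92.5 CPM per kilobase on HFD, 124 and 131 on chow, and 177 and 350 in BAT. These shares sum to 100% in each mouse, so they are a description of the 3 levels and not a further test.

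**Figure D2:**
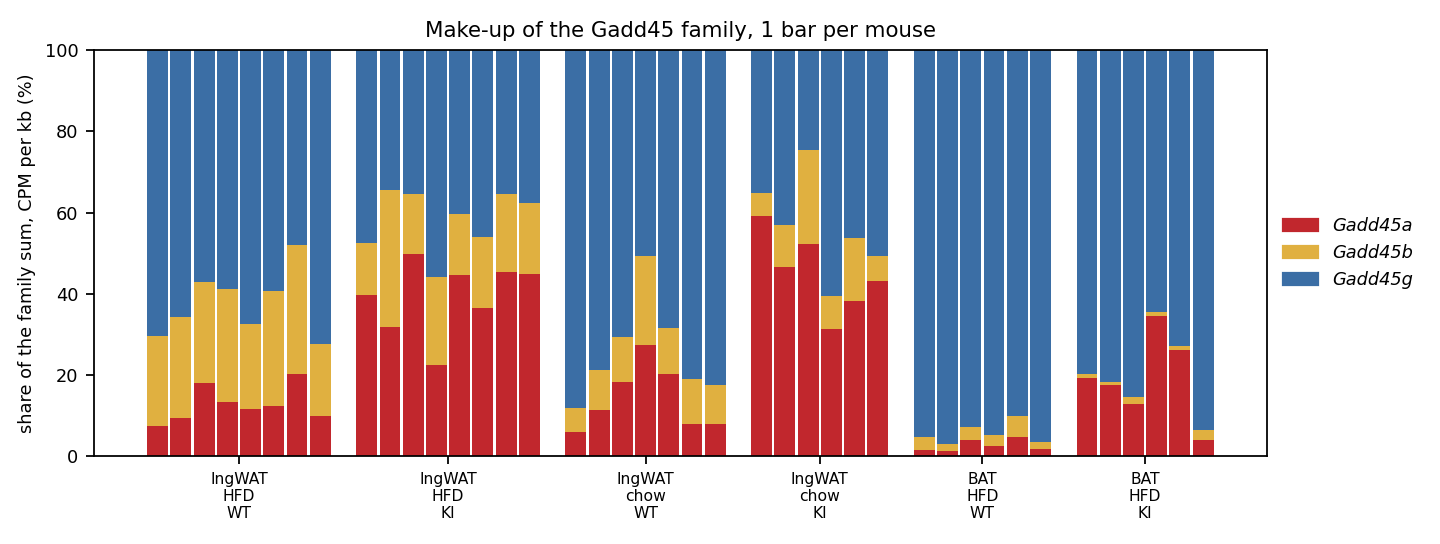
Share of each Gadd45 gene in the summed CPM per kilobase of the family (vertical axis, %), 1 bar per mouse, grouped by tissue, diet and genotype. The red part, Gadd45a, has a median of 42.1% in KI against 11.9% in WT inguinal tissue on HFD, and Gadd45g (blue) fills a median of 95.1% in WT BAT.

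Trp53 RNA overlapped between genotypes in each setting. In inguinal tissue on HFD its WT mice had 44.7 to 68.4 CPM (median 54.3) and its KI mice 43.8 to 72.8 CPM (median 51.1). On chow the medians were 41.6 CPM in WT and 43.5 CPM in KI, and in BAT they were 28.5 and 39.3 CPM. The log2 fold changes were -0.04 (SE 0.102, 95% interval -0.24 to 0.16), 0.08 (SE 0.110, -0.13 to 0.30) and 0.31 (SE 0.134, 0.05 to 0.57). None passed the threshold (edgeR adjusted p = 0.833, 0.690 and 0.165).

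Mdm2 encodes the ubiquitin ligase that marks p53 for degradation and is itself a target of p53. Its range over all WT inguinal mice on HFD was 42.2 to 50.9 CPM (median 44.6), against 39.0 to 46.5 CPM in KI (median 41.7). The medians were 34.97 and 36.9 CPM on chow and 34.8 and 40.6 CPM in BAT. Mdm2 varied least between mice of the members in inguinal tissue on HFD, with an SE of 0.0593 on its log2 fold change of -0.13 (95% interval -0.25 to -0.02). The fold changes on chow, 0.09 (-0.11 to 0.29), and in BAT, 0.14 (-0.10 to 0.37), had intervals that include 0, and no value passed the test (edgeR adjusted p = 0.119, 0.652 and 0.505).

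Cdkn1a encodes p21, the inhibitor of cyclin-dependent kinases through which p53 halts the cell cycle. Its WT and KI medians were 62.3 and 65.7 CPM in inguinal tissue on HFD, 81.6 and 68.0 CPM on chow, and 104 and 116 CPM in BAT, where 1 KI mouse reached 221 CPM. The genotypes overlapped in each setting. Log2 fold changes of -0.14 (95% interval -0.43 to 0.16), -0.21 (-0.63 to 0.21) and 0.25 (-0.28 to 0.78) did not pass (edgeR adjusted p = 0.571, 0.591 and 0.611). Without the libraries that stood apart the value in BAT was 0.61 (edgeR adjusted p = 0.300).

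Bbc3 encodes PUMA, a trigger of apoptosis, and had the lowest level per kilobase of the members in 3 of the 4 inguinal groups. Its medians were 11.5 CPM in WT and 10.3 CPM in KI on HFD, 15.6 and 11.6 CPM on chow and 14.2 and 11.4 CPM in BAT. Log2 fold changes of -0.02 (SE 0.170), -0.25 (SE 0.182) and -0.24 (SE 0.156) did not pass (edgeR adjusted p = 0.963, 0.422 and 0.371). Without the libraries that stood apart they were -0.12, -0.10 and -0.45, none of which passed (edgeR adjusted p = 0.704, 0.835 and 0.130). Ccng1, a cyclin that recruits a phosphatase to MDM2, had medians of 95.9 and 115 CPM on HFD, 89.4 and 105 CPM on chow, and 96.6 and 124 CPM in BAT. Its log2 fold changes were 0.22 (SE 0.0979), 0.41 (SE 0.193) and 0.32 (SE 0.121), and the genotypes overlapped in each setting (edgeR adjusted p = 0.115, 0.206 and 0.119). The value on chow was 0.19 without KI mouse 4, which had 209 CPM and skeletal muscle markers summing to 53277 CPM, and 0.28 without all libraries that stood apart (edgeR adjusted p = 0.433 and 0.195).

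Phlda3, a p53-induced repressor of the kinase AKT, had the highest level per kilobase of the members in all 6 groups. In inguinal tissue on HFD its WT mice lay between 188 and 323 CPM (median 269) and its KI mice between 204 and 479 CPM (median 411), with 6 of 8 KI mice above every WT mouse. The log2 fold change of 0.49 (SE 0.150, 95% interval 0.20 to 0.79) missed the threshold (edgeR adjusted p = 0.0257). On chow it was 0.20 (SE 0.168, adjusted p = 0.495) and in BAT 0.38 (SE 0.179, adjusted p = 0.200). When KI mouse 2 on HFD, rich in lymphocyte markers, was left out, the HFD value was 0.58 and passed (edgeR adjusted p = 0.00210). Without all libraries that stood apart it was 0.48 and did not pass (edgeR adjusted p = 0.0166).

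Sesn1 encodes a sestrin, a stress protein that restrains mTORC1, and had a KI median below its WT median in each setting. Its WT and KI medians were 44.0 and 33.8 CPM on HFD, 42.2 and 30.6 CPM on chow and 19.1 and 13.5 CPM in BAT. Of the KI mice, 7 of 8, 5 of 6 and 5 of 6 lay below every WT mouse. The log2 fold changes were -0.39 (SE 0.122, 95% interval -0.63 to -0.15), -0.39 (SE 0.120, -0.63 to -0.16) and -0.47 (SE 0.143, -0.75 to -0.19), and none passed the threshold (edgeR adjusted p = 0.0272, 0.0576 and 0.0556).

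The Sesn1 result on HFD turned on 1 mouse. KI mouse 2 had 51.8 CPM against at most 37.2 CPM in the other KI mice, and its summed lymphocyte markers were 576 CPM against a median of 13.3 CPM for inguinal tissue on HFD. Without it the log2 fold change was -0.50 and passed the threshold (edgeR adjusted p = 0.000895), and without all libraries that stood apart it was -0.41 (edgeR adjusted p = 0.00492). In BAT the value without such libraries was -0.71 (edgeR adjusted p = 0.0181). The part of the lymphocytes in this level was not tested.

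**Figure D3:**
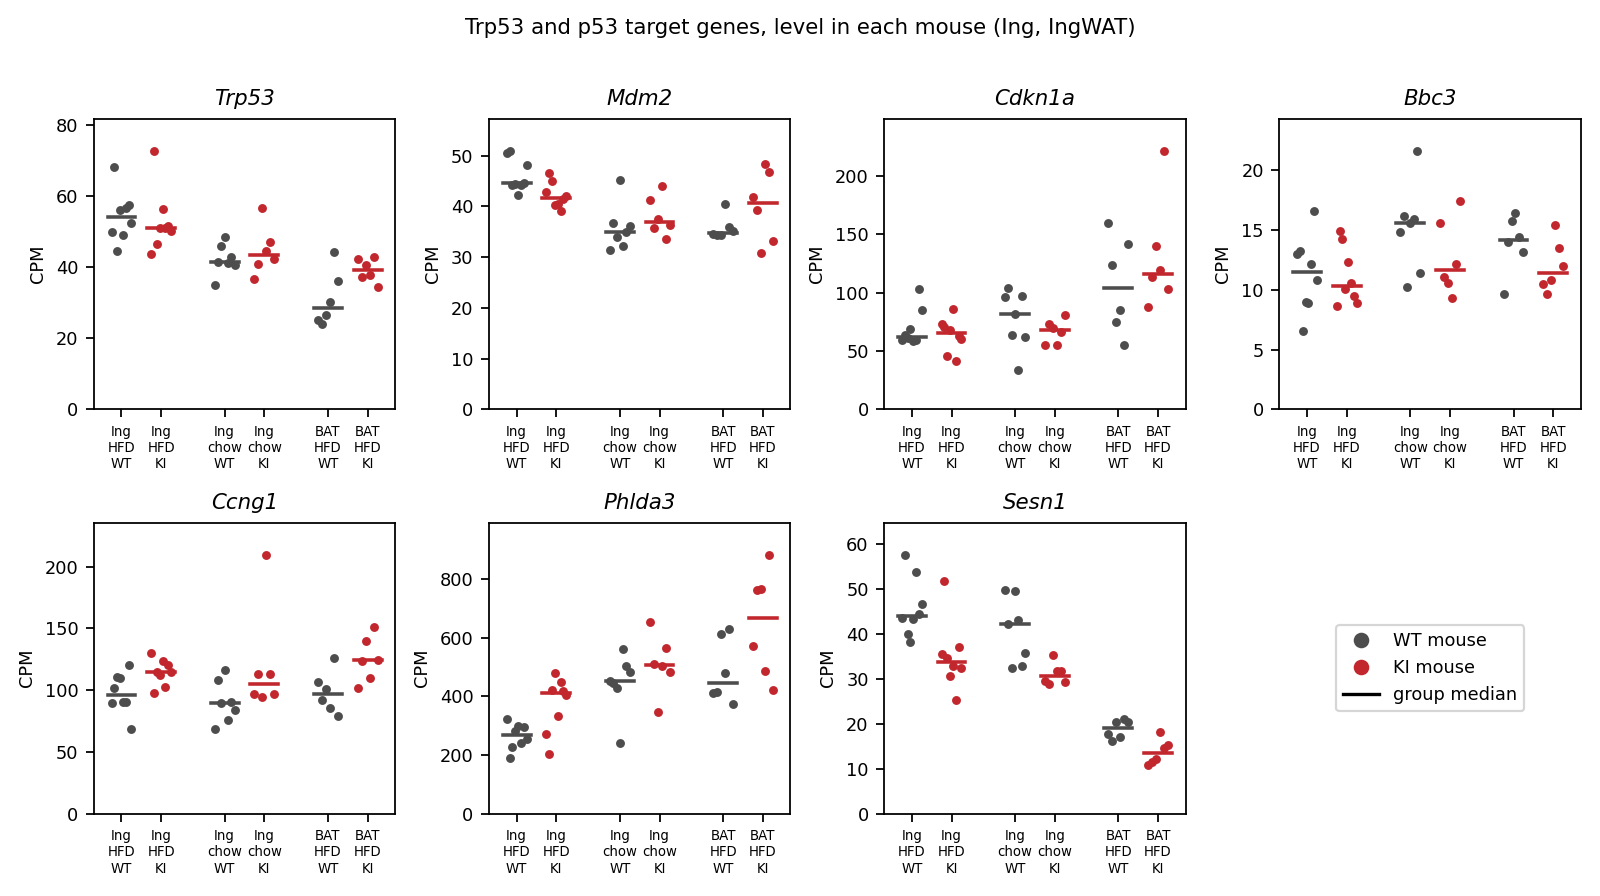
Level of Trp53 and 6 p53 target genes in CPM (vertical axes from 0) in each mouse of the 6 groups; points are mice, grey for WT and red for KI, and lines are group medians. The genotypes overlap in every panel and setting; most KI mice lie below the WT mice for Sesn1, with KI mouse 2 on HFD at 51.8 CPM, and 6 of 8 KI mice on HFD lie above the WT mice for Phlda3.

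Read against all genes, 1 of the 10 members passed the test in inguinal tissue on HFD, where 11.5% of 16471 genes did. On chow it was 1 of 10 against 3.23% of 14629 genes, and in BAT 1 of 10 against 1.83% of 13267 genes. Gadd45a was also the 1 member whose genotypes did not overlap, in settings where 4.64%, 4.02% and 3.66% of genes did not. The median log2 fold change of the members was -0.07, 0.08 and 0.28, beside 0.01, -0.01 and -0.01 over all genes. In BAT 7 of 10 members had positive values and 6 of 10 had an unadjusted p under 0.05, as did 3242 of the 13267 genes.

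**Figure D4:**
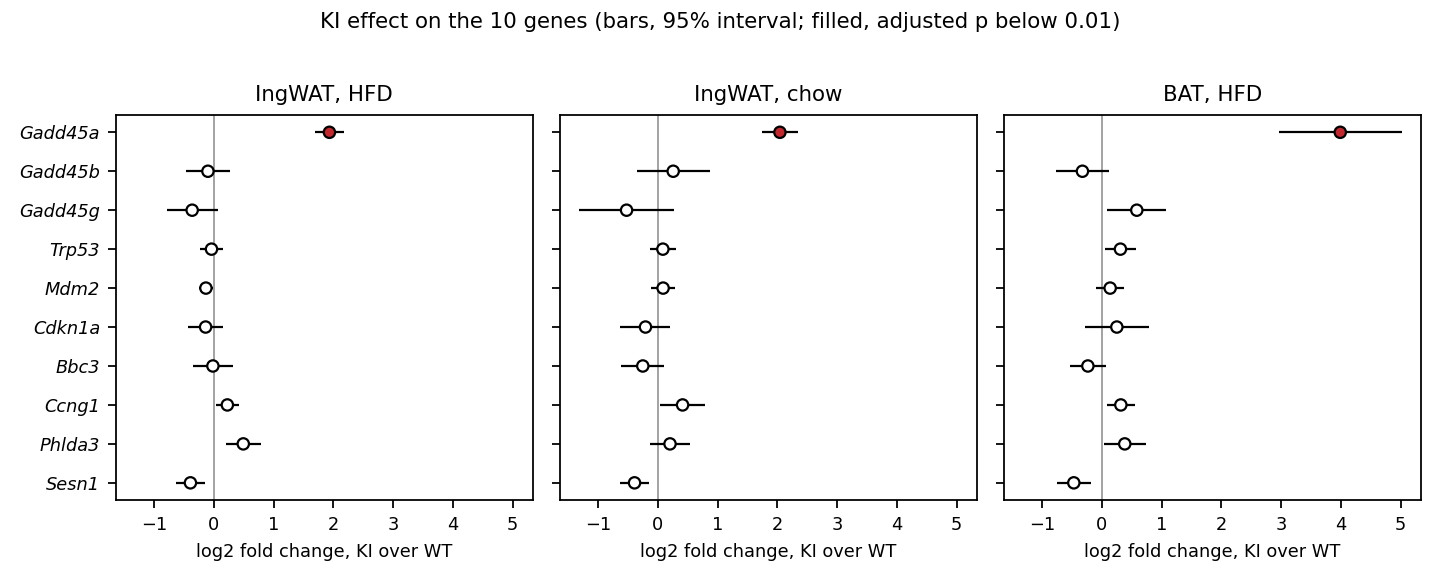
Log2 fold change of KI over WT (horizontal axis) for each of the 10 genes in the 3 settings. Bars are approximate 95% intervals and filled points passed an adjusted p of 0.01. Gadd45a stands at 1.93, 2.04 and 3.99, and the other 9 genes lie between -0.52 and 0.58.

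Whether the KI effect differed between diets or tissues was tested as an interaction. Between diets in inguinal tissue the Gadd45a effect differed by -0.10 (SE 0.203, 95% interval -0.50 to 0.30, edgeR adjusted p = 0.860), and no member passed, where 0.632% of 17400 genes did; by an unadjusted p under 0.05 and by DESeq2 it was also 0 of 10 members. Between tissues on HFD the Gadd45a effect was larger in BAT by 2.08 (SE 0.448, 95% interval 1.21 to 2.96, edgeR adjusted p = 0.00455), the 1 member of 10 to pass, where 2.82% of 17214 genes did. This call was lost without WT mouse 6 in BAT (2.00, adjusted p = 0.0111) without a filter on low counts (2.07, adjusted p = 0.0118) and with the replicate number as a block (1.82, adjusted p = 0.119), and it was 2.08 without the libraries that stood apart (adjusted p = 5.00e-05). For Gadd45g the tissue difference of 0.99 (SE 0.347) did not pass (edgeR adjusted p = 0.0811). The tissue differences of Cdkn1a (0.44), Trp53 (0.39), Mdm2 (0.31), Ccng1 (0.13), Sesn1 (-0.04), Phlda3 (-0.07), Bbc3 (-0.18) and Gadd45b (-0.19) did not pass either. The diet differences of the other members lay between -0.35 (Gadd45b) and 0.31 (Phlda3), with Mdm2 (-0.21), Ccng1 (-0.18), Trp53 (-0.12), Sesn1 (0.00434), Cdkn1a (0.08), Gadd45g (0.18) and Bbc3 (0.24) in between. The sources do not say if 1 animal gave both tissues, and tissue cannot be told apart from the separate making of the tables.

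Between diets within a genotype, 4 of 10 members passed in WT inguinal tissue, where 28.2% of genes did. Gadd45a (log2 fold change of HFD over chow -0.50, edgeR adjusted p = 0.00623) and Phlda3 (-0.76, adjusted p = 0.000565) were lower on HFD. Trp53 (0.35, adjusted p = 0.00584) and Mdm2 (0.35, adjusted p = 0.000281) were higher. Gadd45b (0.69, adjusted p = 0.0282), Sesn1 (0.15), Ccng1 (0.10), Cdkn1a (-0.15), Bbc3 (-0.44, adjusted p = 0.0459) and Gadd45g (-0.78, adjusted p = 0.0502) did not pass. The Gadd45a call was lost without the libraries that stood apart (-0.36, adjusted p = 0.0522), and with 1 mouse removed it held in 8 of 15 fits and the Trp53 call in 5 of 15, while those for Mdm2 and Phlda3 held in all 15. In KI tissue 1 of 10 passed, where 30.6% of genes did: Gadd45a, lower on HFD at -0.59 (edgeR adjusted p = 0.00128). With 1 fit of all 6 groups this call was lost (-0.63, edgeR adjusted p = 0.0450). The WT calls for Gadd45a (-0.50, adjusted p = 0.113) and Trp53 (0.35, adjusted p = 0.0115) were also lost with that fit. Phlda3 (-0.45, adjusted p = 0.0351) did not pass, but did without the libraries that stood apart (-0.54, adjusted p = 0.00268). Gadd45g (-0.60), Bbc3 (-0.19), Ccng1 (-0.08), Cdkn1a (-0.07), Mdm2 (0.14), Sesn1 (0.16), Trp53 (0.23) and Gadd45b (0.33) did not pass. Diet cannot be told apart from the depth and the 2 technical replicates per mouse of the HFD table.

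Between tissues on HFD, 8 of 10 members passed in WT mice, where 55.9% of genes did. Sesn1 (-1.23), Gadd45b (-1.97), Gadd45a (-1.19), Trp53 (-0.75) and Mdm2 (-0.31) were lower in BAT than in inguinal tissue on the log2 scale. Gadd45g (1.78), Phlda3 (0.94) and Cdkn1a (0.67) were higher. The Cdkn1a call (edgeR adjusted p = 0.00850) was lost without the libraries that stood apart (0.35, adjusted p = 0.260) and held in 5 of 14 fits with 1 mouse removed. The Gadd45a call was lost without WT mouse 6 in BAT (-1.10, adjusted p = 0.0102) and with the replicate block (-1.13, adjusted p = 0.0352). The Mdm2 call was lost without the libraries that stood apart (-0.27, adjusted p = 0.0212) and with the block (-0.31, adjusted p = 0.0197). Ccng1 (0.06) and Bbc3 (0.35) did not pass.

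In KI mice 7 of 10 passed between tissues, where 59.1% of genes did. The sign for Gadd45a was opposite to that in WT mice: it was higher in BAT at 0.89 (SE 0.291, edgeR adjusted p = 0.00848), against -1.19 in WT. Gadd45g (2.78), Cdkn1a (1.10) and Phlda3 (0.86) were higher in BAT, and Gadd45b (-2.16), Sesn1 (-1.27) and Trp53 (-0.37) were lower. With 1 mouse removed, the Gadd45a call held in 4 of 14 fits and the Trp53 call (edgeR adjusted p = 0.00867) in 3 of 14. With the replicate block the Gadd45a value was 0.69 (adjusted p = 0.145) and the Trp53 value -0.37 (adjusted p = 0.0322), and without the libraries that stood apart Trp53 stood at -0.25 (adjusted p = 0.0564), so these calls were lost there. Mdm2 (-0.00554), Bbc3 (0.17) and Ccng1 (0.19) did not pass. Both tissue comparisons rest on different libraries, but their difference is the interaction given above and no second test.

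By order of level per kilobase, Phlda3 was first in every group, from 172 CPM per kilobase in WT inguinal tissue on HFD to 428 in KI BAT. Gadd45g was second in all groups but KI inguinal tissue on HFD, where Gadd45a (40.1 CPM per kilobase) and Gadd45g (35.6) stood next to each other. Gadd45a moved from rank 8 of 10 in WT to rank 2 in KI inguinal tissue on HFD, from 5 to 3 on chow and from 10 to 3 in BAT. At the low end, Gadd45a (8.95) and Mdm2 (8.77) in WT inguinal tissue on HFD, and Sesn1 (4.79), Gadd45b (4.79) and Gadd45a (4.10) in WT BAT, were neighbours with overlapping mice.

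Other genes of the pathway were taken from lists. Of 31 further p53 targets, 30 were tested in inguinal tissue on HFD and 5 passed (16.7%, against 11.5% of all genes): Zfp365 (0.96, edgeR adjusted p = 0.00319), Aen (0.45), an exonuclease, and Xpc (0.28) of nucleotide excision repair were higher, and Ckap2 (-0.83), a spindle protein, and Fas (-0.33), a death receptor, were lower in KI. Of 27 tested on chow and 27 in BAT none passed with edgeR, where 6 and 8 had an unadjusted p under 0.05 (24.3% and 24.4% of all genes did) and DESeq2 called 0 and 1. The median log2 fold changes of the list were 0.03, 0.01 and 0.05. Of 13 p53 regulators tested on HFD, 1 passed (7.69%, against 11.5% of all genes): Cop1, a ubiquitin ligase for p53, was higher (0.31). None of 12 on chow and 11 in BAT passed (2 and 1 at an unadjusted p under 0.05, 0 by DESeq2 in both).

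In the lists that follow, shares called stand against 11.5% of all genes on HFD, 3.23% on chow and 1.83% in BAT. An unadjusted p under 0.05 was found for 32.9% of all genes on HFD, 24.3% on chow and 24.4% in BAT. The shares called are those of edgeR, and DESeq2 called more genes than edgeR on chow and in BAT. Of the 9 Gadd45 partners, 2 passed in KI inguinal tissue on HFD (22.2%). Map3k4, the kinase that Gadd45 proteins bind, was higher (0.33) and Map2k6, which activates p38, was lower (-0.81). None passed with edgeR on chow or in BAT, where 1 in each had an unadjusted p under 0.05 and DESeq2 called 0. Of 7 paralogues of the members tested on HFD, 3 were lower (42.9%), Phlda1 (-0.67), Ccng2 (-0.58) and Sesn3 (-0.47). With edgeR none of 7 passed on chow and none of 6 in BAT (1 and 4 at an unadjusted p under 0.05, 1 by DESeq2 in each). Of 19 cyclins, cyclin-dependent kinases and proliferation genes on HFD, Cdk1 (-1.32) and Mki67 (-0.74) were lower and none was higher. These were 10.5% of the list, close to the 11.5% of all genes. The list medians were -0.24 on HFD, -0.12 on chow and 0.27 in BAT, and 0 of 18 passed with edgeR on chow and in BAT (3 and 5 at an unadjusted p under 0.05, 1 and 0 by DESeq2). Of 6 senescence markers Cdkn2b (-0.59) and Glb1 (-0.49) were lower on HFD (33.3%). Of 5 tested on chow and in BAT none passed with edgeR, with DESeq2 or at an unadjusted p under 0.05, which gave 0 in each.

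Of 3 other genes that share the growth arrest and DNA damage name, 2 were higher in KI tissue (66.7% in each setting). Ddit3, which encodes CHOP (GADD153), had log2 fold changes of 1.37, 1.22 and 2.15, and Ppp1r15a (GADD34), which restores translation by dephosphorylating eIF2alpha, had 1.08, 1.06 and 1.55; both passed in all 3 settings. Gadd45gip1, a mitochondrial ribosomal protein that binds Gadd45 proteins, had 0.20, 0.35 and 0.23 and passed in none (edgeR adjusted p = 0.0463, 0.149 and 0.394). Of 10 genes of the integrated stress response, which include Ddit3 and Ppp1r15a, 8 were higher on HFD, 6 on chow and 5 in BAT, and none was lower. These were 80%, 60% and 50% of the list, against 11.5%, 3.23% and 1.83% of all genes. The medians of this list were 1.07, 0.97 and 1.29. Trib3, a pseudokinase target of CHOP, had 3.18, 3.65 and 3.54, and the factor Atf5 had 2.55, 2.08 and 1.93. Asns, the asparagine synthetase, had 1.75 on HFD, and Chac1, which degrades glutathione, had 2.18 on chow. Of 6 p53 targets that ATF4 or CHOP also drive, 5 were tested in BAT. There Atf3 was higher (2.73, edgeR adjusted p = 0.00580), 20% of those tested, and DESeq2 called 3. In inguinal tissue Atf3 had -0.83 on HFD and -0.94 on chow, neither of which passed. Gdf15 of this list had 1.52 on HFD, 2.07 on chow and 3.74 in BAT, none of which passed (edgeR adjusted p = 0.0117, 0.0270 and 0.0360). Positive values were found for 2 of 6 genes on HFD, 2 of 5 on chow and 4 of 5 in BAT. None of 6 on HFD and 5 on chow passed with edgeR (2 in each at an unadjusted p under 0.05, 1 in each by DESeq2). Over all genes, 32.9% on HFD and 24.3% on chow had an unadjusted p under 0.05. The list medians were -0.22 on HFD, -0.14 on chow and 0.59 in BAT.

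The KI mouse with 13.03 CPM of Gadd45a in BAT also had the lowest summed level of the integrated stress response list among the KI mice, 2268 CPM against 3128 to 3684 CPM in the other KI mice and 1372 to 1622 CPM in WT mice. Its Trib3 was 27.9 CPM, beside a KI median of 209.8 CPM and a WT median of 17.3 CPM. Its skeletal muscle markers summed to 706 CPM against a median of 4.98 CPM in BAT, and whether muscle in the sample took part in these levels was not tested.

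**Figure D5:**
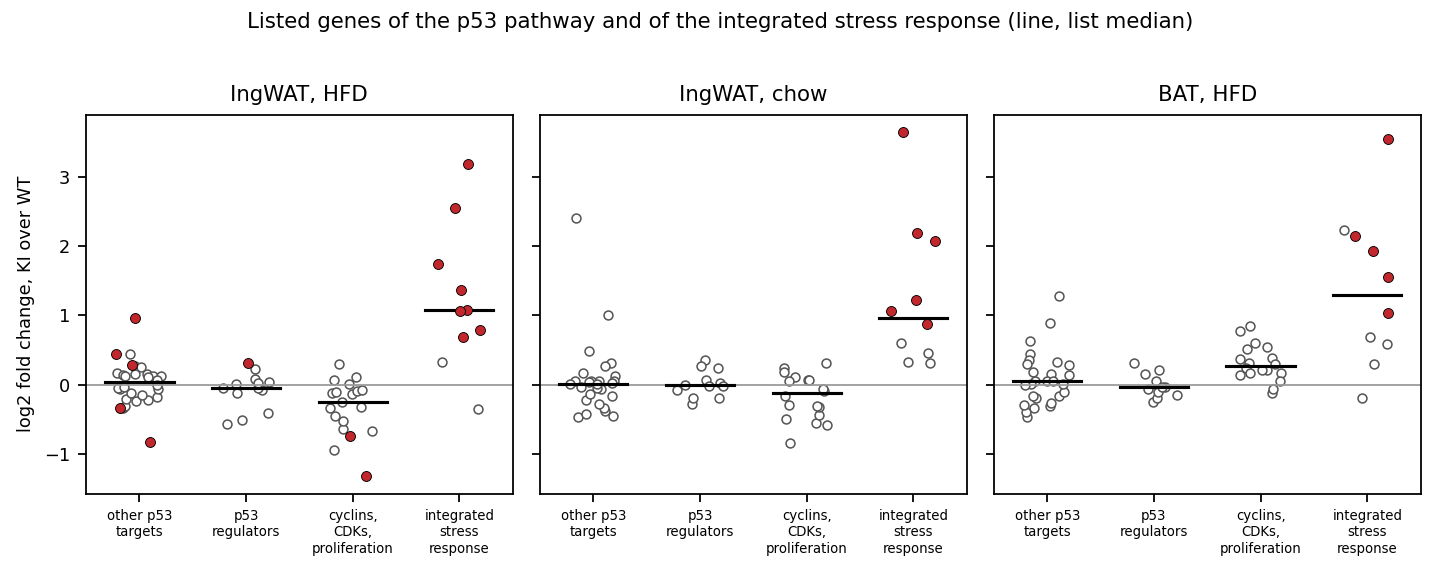
Log2 fold change of KI over WT (vertical axis) for genes of 4 lists in the 3 settings; each point is a gene, filled points passed an adjusted p of 0.01, and lines are list medians. The medians of the other p53 targets are 0.03, 0.01 and 0.05, and those of the integrated stress response are 1.07, 0.97 and 1.29.

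Lists for other known inputs to Gadd45 genes stand beside the share of all genes that passed. This was 11.5% in inguinal tissue on HFD, 3.23% on chow and 1.83% in BAT. Of 10 immediate early genes, Ier3 was higher on chow (0.83, 10% of the list). With edgeR none of 10 passed on HFD and none of 9 in BAT (3 and 1 at an unadjusted p under 0.05, 2 and 1 by DESeq2). None of 8 glucocorticoid and fasting genes passed in any setting with edgeR; 4, 2 and 1 had an unadjusted p under 0.05, and DESeq2 called 1, 2 and 0. Of 6 FoxO targets, Txnip was higher on HFD (0.51) and Cited2 lower on chow (-0.75), 16.7% of the list on each diet, and none passed in BAT. The part of these inputs in the levels of the Gadd45 genes was not tested.

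Summed markers of other cell types are given beside these results, since their medians differed between genotypes. The 7 macrophage markers ran from 654 to 1150 CPM (median 912) in WT and from 492 to 1492 CPM (median 680) in KI inguinal tissue on HFD, with medians of 840 and 680 CPM on chow and 312 and 283 CPM in BAT. Of these markers 1 of 7 was lower on HFD and none of 7 passed on chow or in BAT. The 6 fibroblast and progenitor markers ran from 1710 to 3026 CPM in WT and from 1438 to 2599 CPM in KI on HFD, with medians of 2373 and 1844 CPM on chow and 512 and 316 CPM in BAT. Here 1 of 6 was lower in BAT and none passed in inguinal tissue. Of 3 brown adipocyte markers tested in inguinal tissue, 2 were higher in KI on each diet, and the summed list had medians of 19.2 and 42.0 CPM on HFD and 71.8 and 407 CPM on chow. Over all genes, 11.5% passed in inguinal tissue on HFD, 3.23% on chow and 1.83% in BAT. No marker of these lists was at 0 in every mouse of a group. The part of cell make-up in the levels of the members was not tested.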

How the data were processed

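RNA of IngWAT and BAT was sequenced on a NovaSeq from paired-end TruSeq libraries. Per the labels and the study's methods, the authors trimmed reads with cutadapt, aligned them with STAR to GRCm38, handled them with SAMtools and counted them per gene with featureCounts; versions and strand setting are not given in the sources used here. The deposited values are whole-number counts per gene, not normalised, in 3 tables of 54838 entries. The 57 GEO samples came as 41 columns, since the 2 technical replicates of each mouse in inguinal tissue on HFD stood in 1 column. After 1884 entries without length or count were removed and 99 repeated symbols were kept once, 52853 genes remained. No column of another series was used.

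Counts were tested per table with the quasi-likelihood F test of edgeR 4.0.16 in R 4.3.3 (TMM, filterByExpr, robust dispersions), with Benjamini-Hochberg adjustment over all genes tested and a threshold of 0.01, after the threshold of the study. Interactions and comparisons of diets and tissues used 1 fit of the 4 groups concerned. The SE is the absolute log2 fold change divided by the square root of the F statistic. Intervals are the estimate ± 1.96 SE and make no allowance for the few mice, so they are approximate and somewhat narrow. An interval that just excludes 0 can go with an unadjusted p above 0.05. The diet difference of Mdm2 had -0.42 to -0.0067 with an unadjusted edgeR p of 0.0522. Levels are CPM with TMM factors over all 41 columns, and levels between genes are per kilobase of the length in the tables. Lowest, median and highest values are over mice.

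The 10 genes, the gene lists and the tests were chosen with earlier results of these data known. All members are given in all comparisons. Of a list, genes that passed are named, at most the 4 largest per comparison, and Xpc is a 5th p53 target named after its value was seen. Gadd45gip1 and Gdf15 did not pass and are named as well, Gdf15 after its values were seen. Libraries were called apart after seeing the data, where summed markers of lymphocytes, skeletal muscle, epithelium or mesothelium exceeded 10 times the median of the tissue and diet and 50 CPM. Of the genes most like a member, 1 is not reported here.

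Tested on simulated data in which 200 genes carried a log2 change of 1.5, the fit recovered 81.5% of these in inguinal tissue on HFD, 77.0% on chow and 87.5% in BAT. It recovered 59.5% for the diet difference and 63.5% for the tissue difference. The KI effects of the members other than Gadd45a, between -0.52 and 0.58, were smaller than 1.5, and recovery at their size was not tested. Promoters came from RefSeq. Alternatives were DESeq2 1.42.0, other size factors and filters, other thresholds, 1 fit of all 6 groups, a replicate block and each mouse left out.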

Additional observations from a re-analysis of the deposited data

Results flagged for a closer look

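Among 60 groups of a member's values, 7 held 1 mouse that stood far from the others by Dixon's criterion, which chance does for about 1 group in 20. Gadd45g was 78.7 CPM in KI mouse 4 of inguinal tissue on HFD, where the next value was 55.6 CPM. KI mouse 2 of the same tissue and diet had 72.8 CPM of Trp53 (next 56.5 CPM) and 51.8 CPM of Sesn1 (next 37.2 CPM), and it had the highest lymphocyte marker sum of its tissue and diet. WT mouse 4 on chow had 45.1 CPM of Mdm2 (next 36.7 CPM) and 240 CPM of Phlda3 (next 429 CPM), and it was the library with epithelial and mesothelial markers. KI mouse 4 on chow had 209 CPM of Ccng1 (next 113 CPM), with skeletal muscle markers summing to 53277 CPM. In BAT, WT mouse 4 had 40.5 CPM of Mdm2 (next 36.0 CPM). The part of the other cell types in these values was not tested.

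The effect of the knock-in on Gadd45a differed between tissues on HFD by 2.08 on the log2 scale, larger in BAT, by the interaction test of edgeR. The call was lost without WT mouse 6 in BAT, without a filter on low counts and with a replicate block (1.82, edgeR adjusted p = 0.119).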

How the results depend on the processing

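Of 1911 values of the members under alternatives, 1801 kept their direction and side of the threshold, and 21 turned direction. The KI effect on Gadd45a was called in every fit that left out 1 mouse (1.89 to 2.00 on HFD, 1.97 to 2.16 on chow, 3.74 to 4.23 in BAT), under all 10 other alternatives in inguinal tissue and under 9 of 10 in BAT. The larger changes in the counts of members called were as follows, and smaller ones are not listed. KI against WT gave 3 on HFD at a threshold of 0.05 and 2 without the libraries that stood apart (chosen after seeing the data), and 0 in BAT at 0.001. The tissue difference gave 0 without a filter on low counts, at 0.001 and with a replicate block. HFD against chow gave 2 in WT with 1 fit of all 6 groups and at 0.001; in KI it gave 0 with that fit and at 0.001, and 2 at 0.05 and without the libraries that stood apart. BAT against inguinal tissue in WT gave 5 at 0.001. With 1 mouse left out, the members called ranged from 1 to 3 for KI on HFD, from 0 to 1 for the tissue difference and from 2 to 4 for HFD against chow in WT. So left, these effects took both signs: Trp53 on HFD -0.13 to 0.015, Bbc3 on HFD -0.11 to 0.083, Trp53 on chow -0.0092 to 0.15, the Gadd45g diet difference -0.0080 to 0.49, Ccng1 for HFD over chow in KI -0.15 to 0.15, and for BAT over inguinal tissue Ccng1 in WT -0.016 to 0.12 and Mdm2 in KI -0.0686 to 0.057. Direction also turned for Ccng1 in BAT over inguinal tissue in WT with at least 10 counts in every column (-0.051), for Mdm2 in KI with 1 fit (0.0081) and without the libraries that stood apart (0.020), and, also without those, for Ccng1 for HFD over chow in KI (0.12) and the Gadd45b tissue difference (0.017); the cause was not tested.

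Over all genes, DESeq2 called 1107 on chow, 717 in BAT, 409 for the diet difference and 848 for the tissue difference, against 472, 243, 110 and 485; 1 fit called 1242 on HFD, 1088 on chow and 834 in BAT. A threshold of 0.05 called 3448, 1252, 952, 500 and 1280, and 0.001 called 880, 125, 59, 19 and 163. In BAT 62.7% of calls were higher without the libraries that stood apart, against 74.1%. Whether same replicate numbers mark paired or shared mice is not stated, and correlations between libraries could not decide it. Of pairs of genotypes, 2 of 8, 1 of 6 and 2 of 6 correlated above 0.1, as did 3 of 6 WT and 2 of 6 KI pairs of tissues. Of the tissue pairs, 3 of 6 WT and 1 of 6 KI ones correlated best with their own number. The replicate block called 102 genes on chow, 42 for the diet difference and 180 for the tissue difference, where Gadd45a stood at 1.82 (edgeR adjusted p = 0.119). The lowest count of a member was 29 (Gadd45b in BAT); the effect of depth was not tested.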

Other observations

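After each group's mean was taken away, the genes most like Gadd45a over the 41 columns were its antisense neighbour E230016M11Rik (Pearson r 0.92, Spearman rho 0.83), Sqstm1 (0.77 and 0.41) and Ppp1r15a (0.76 and 0.55), out of 16200 genes. Without KI mice 6 and 4 of BAT, the 2 columns farthest in Gadd45a, r was 0.78, 0.39 and 0.42, so the likeness to Sqstm1 and Ppp1r15a rested largely on those 2 columns. Gadd45b was most like Gm13841 (r 0.66), Pde4b (0.64) and Dok1 (0.62). Among the genes most like Gadd45g were Peg3 (r 0.67) and Magohb (0.63). Cdkn1a was most like Trmt61a (r 0.64), Ptger2 (0.61) and Tbc1d16 (0.57). Among the members themselves r ran from -0.50 for Sesn1 with Phlda3 to 0.49 for Gadd45a with Mdm2. These values are descriptions; columns share a table, a depth and a make-up of cells.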
